A study of Mus musculus with 30 samples.

Results

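Hypoxia and glycolysis genes of the mouse kidney were followed as a set of 10 genes that hypoxia-inducible factor (HIF) is known to regulate: Adm, Vegfa, Slc2a1, Hk2, Pfkfb3, Ldha, Pdk1, Egln3, Bnip3 and Ankrd37. They were found by symbol among the Ensembl identifiers of the count tables, and all 10 were present among the 57133 genes. Poly-A RNA of whole kidney was sequenced in 30 libraries of transgenic (TG) mice, whose genotype the labels name Gsta2-H2BeGFP, and of wild-type (WT) mice. Males with nephrectomy (NX, surgical loss of a kidney) plus ischemia-reperfusion injury (IRI, a stop and return of renal blood flow) gave 6 TG and 6 WT libraries, taken at 4 hours. After NX alone there were 3 TG and 3 WT libraries of males, and without surgery 3 TG and 3 WT libraries of females and 3 TG and 3 WT libraries of males. The design text states that transcription in TG and WT kidneys was compared at this time to capture early events of the injury response. Every NX and IRI mouse carries the same loss of a kidney, and the labels give neither the age and strain of the mice, the time of the NX kidneys, nor the promoter of the transgene. They do not say that replicates are separate animals, so each p-value reflects spread among libraries, which may be technical.

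When oxygen is plentiful, prolyl hydroxylases such as the one Egln3 encodes mark HIF alpha subunits for destruction by the von Hippel-Lindau complex. When oxygen is short the subunits persist, join ARNT on DNA and raise transcription of genes for vessel growth, glucose uptake, glycolysis and the diversion of pyruvate from the mitochondria. In the kidney the proximal tubule normally makes glucose and burns fatty acids and uses little glycolysis, while deeper segments work at low oxygen.

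HIF binds a short core, and the core letters ACGTG and GCGTG were searched on both strands of promoter windows that reach from 250 bases before to 50 bases after each RefSeq gene start (build GRCm38.p6). All 10 genes had a window, 14 windows in all, and all 10 had a match in at least 1 of them. Of all 27025 genes with windows 46.7% had a match, and with ACGTG alone the counts were 8 of 10 genes against 21.8% of all genes. The windows of the 10 genes were also richer in G and C, with a median of 63.7% against 52.7% over all 32851 windows. A match is a description of letters and not a site in use. Shown first are the windows of Adm, Slc2a1 and Pfkfb3, the genes that were higher after IRI in both genotypes, then that of Hk2, whose value turned on 1 library, and that of Ldha, which was higher in neither genotype. Capitals mark the core letters on either strand (ACGTG and GCGTG, or their complements CACGT and CACGC), overlapping matches run together, and where a gene has several windows the most 5′ is given.
Adm, chr7:110627407-110627706, plus strand: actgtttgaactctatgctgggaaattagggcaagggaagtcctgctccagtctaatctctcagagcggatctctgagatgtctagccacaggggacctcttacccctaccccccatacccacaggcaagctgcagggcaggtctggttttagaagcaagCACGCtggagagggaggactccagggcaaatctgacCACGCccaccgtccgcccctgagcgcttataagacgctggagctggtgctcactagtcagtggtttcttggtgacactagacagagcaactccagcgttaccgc
Slc2a1, chr4:119108495-119108794, plus strand: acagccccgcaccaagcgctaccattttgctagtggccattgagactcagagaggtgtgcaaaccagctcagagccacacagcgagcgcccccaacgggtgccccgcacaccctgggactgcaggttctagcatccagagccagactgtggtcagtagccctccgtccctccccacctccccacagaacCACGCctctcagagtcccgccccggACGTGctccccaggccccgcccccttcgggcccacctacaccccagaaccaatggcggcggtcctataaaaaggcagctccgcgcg
Pfkfb3, chr2:11553880-11554179, minus strand: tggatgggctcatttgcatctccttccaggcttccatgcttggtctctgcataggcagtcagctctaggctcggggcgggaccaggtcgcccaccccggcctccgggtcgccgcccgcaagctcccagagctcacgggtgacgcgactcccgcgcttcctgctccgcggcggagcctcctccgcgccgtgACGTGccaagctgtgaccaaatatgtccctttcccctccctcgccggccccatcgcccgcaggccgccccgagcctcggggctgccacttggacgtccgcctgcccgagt
Hk2, chr6:82774405-82774704, minus strand: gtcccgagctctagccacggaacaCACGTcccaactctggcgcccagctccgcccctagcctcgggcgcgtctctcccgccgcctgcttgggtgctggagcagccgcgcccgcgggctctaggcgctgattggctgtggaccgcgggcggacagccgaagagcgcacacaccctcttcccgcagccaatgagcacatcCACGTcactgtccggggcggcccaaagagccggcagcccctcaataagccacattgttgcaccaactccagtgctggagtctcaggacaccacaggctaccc
Ldha, chr7:46845554-46845853, plus strand: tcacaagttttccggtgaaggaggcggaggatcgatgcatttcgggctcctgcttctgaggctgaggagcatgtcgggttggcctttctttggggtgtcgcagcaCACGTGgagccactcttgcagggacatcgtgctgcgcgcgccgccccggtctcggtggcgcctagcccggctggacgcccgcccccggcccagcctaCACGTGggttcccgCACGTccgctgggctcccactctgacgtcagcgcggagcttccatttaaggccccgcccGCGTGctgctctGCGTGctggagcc
These windows differ widely in their matches. Ldha held 7 match positions, where each CACGTG counts once on each strand, and the Slc2a1, Hk2 and Adm windows held 2 each. The Pfkfb3 window held 1, while its other window, not shown, held 4. Of the 5 windows shown, that of Ldha had the most match positions. Among windows not shown, that of Egln3 held 1 and that of Bnip3 5. Ldha, Egln3 and Bnip3 were called higher after IRI in neither genotype. The relation of match positions to the changes after IRI was not tested.

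The libraries held 49040915 to 91354407 counts and 20969 to 24070 detected genes each. EGFP, the reporter of the transgene, had 1.30 to 16.5 CPM (counts per 1000000, scaled by TMM factors) in TG libraries and 0 in WT libraries, except in the library labelled WT IRI replicate 1, which had 2.81 CPM. Gsta2, the gene in the name of the genotype, averaged 84.3 ± 10.6 CPM in TG IRI kidneys and 91.8 ± 36.7 CPM in WT IRI kidneys (SD, n = 6 each), and was called in no comparison of TG with WT. The proximal tubule markers Lrp2, Slc34a1, Slc5a12, Slc22a6 and Miox summed to 7676 CPM or more in every library, as a kidney label requires. The library labelled WT NX replicate 0 stood apart by fat genes: the 5 adipocyte markers Adipoq, Plin1, Cfd, Cidec and Fabp4 summed to 759.5 CPM there and to 16.8 and 19.7 CPM in the other WT NX libraries. In bulk tissue, fewer cells of a type and less RNA per cell cannot be told apart.

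The effect of ischemia-reperfusion beyond nephrectomy was asked within each genotype, IRI against NX. In TG kidneys 4 of the 10 genes rose and 0 fell, where 16.4% of the 19264 genes tested rose and 13% fell. The median log2 change was 0.39 over the 10 genes and -0.01 over all genes tested. In WT kidneys 5 of the 10 rose and 2 fell, where 16.8% of all genes rose and 14.1% fell, with a median log2 change of 0.13 over the 10 genes and -0.01 over all. Adm, Slc2a1 and Pfkfb3 rose in both genotypes. Calls are from the quasi-likelihood test of edgeR at a Benjamini-Hochberg adjusted p under 0.05 over all genes, and changes are log2 ± SE.

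Adm encodes adrenomedullin, a secreted peptide that widens vessels. Its level in TG IRI kidneys, replicates 0 to 5, was 20.5, 34.3, 43.0, 18.04, 30.1 and 22.9 CPM, against 5.47, 5.37 and 8.64 CPM in TG NX kidneys. In WT IRI kidneys it was 19.2, 19.1, 23.2, 24.01, 22.2 and 21.2 CPM, against 3.45, 6.90 and 4.88 CPM in WT NX kidneys. Every IRI library stood above every NX library of its genotype, and the WT IRI libraries lay close together, while the TG IRI libraries spread 2.39-fold between the lowest and the highest. The log2 change was 2.11 ± 0.26 in TG (4.31-fold, adjusted p = 6.2e-06 by edgeR) and 2.08 ± 0.27 in WT (4.23-fold, adjusted p = 8.7e-06 by edgeR).

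Vegfa, the main growth factor of vessel endothelium, moved far less. It had 190.0, 183, 179, 198, 183 and 167 CPM in TG IRI kidneys, against 156, 182 and 149 CPM in TG NX kidneys, and these groups overlapped. It had 191, 235, 193, 230.5, 189 and 177 CPM in WT IRI kidneys, against 170.4, 152 and 153 CPM in WT NX kidneys, with no overlap. The log2 change was 0.35 ± 0.10 in WT (1.27-fold, adjusted p = 0.0091 by edgeR) and 0.17 ± 0.10 in TG, where it was not called (adjusted p = 0.21 by edgeR). The difference between those 2 changes was -0.18 ± 0.13 and was not called either (adjusted p = 0.69 by edgeR).

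Slc2a1, the glucose transporter GLUT1, rose in both genotypes. Its level was 109, 105, 107, 88.1, 99.4 and 129.6 CPM in TG IRI kidneys, against 39.9, 41.8 and 43.4 CPM in TG NX kidneys. It was 76.6, 94.0, 104, 118, 94.5 and 184 CPM in WT IRI kidneys, against 32.7, 49.0 and 35.0 CPM in WT NX kidneys. No IRI library fell within the NX range of its genotype, and WT IRI replicate 5 stood highest of all. The log2 change was 1.34 ± 0.21 in TG (2.54-fold, adjusted p = 6.3e-05 by edgeR) and 1.52 ± 0.21 in WT (2.87-fold, adjusted p = 2.0e-05 by edgeR). WT IRI replicate 5 also had the highest summed levels of 5 red cell markers (1423 CPM), 6 leukocyte markers (148 CPM) and 2 loop of Henle markers (6536 CPM) of the 12 IRI libraries. It was highest as well for distal tubule and collecting duct (3504 CPM, against 2253 CPM in the next library), podocyte (470.3 CPM, against 293 CPM), endothelium (558 CPM, against 375 CPM), pericyte and fibroblast (131 CPM) and proximal tubule markers (13401 CPM), so it was highest in every marker list but the adipocyte one. Without that library the WT change of Slc2a1 was 1.33 ± 0.14.

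Pfkfb3 makes and breaks down fructose-2,6-bisphosphate, the strongest activator of phosphofructokinase. It had 97.7, 80.1, 86.1, 71.8, 76.6 and 68.5 CPM in TG IRI kidneys, against 23.98, 19.4 and 27.1 CPM in TG NX kidneys. It had 71.2, 98.9, 74.4, 97.1, 60.9 and 88.7 CPM in WT IRI kidneys, against 63.4, 20.05 and 21.3 CPM in WT NX kidneys. The TG groups did not overlap, and in WT the NX library with fat genes, replicate 0, reached into the IRI range. The log2 change was 1.76 ± 0.29 in TG (3.39-fold, adjusted p = 0.00012 by edgeR) and 1.22 ± 0.28 in WT (2.32-fold, adjusted p = 0.0026 by edgeR). Without WT NX replicate 0 the WT change was 1.996 ± 0.19.

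Hk2, the hexokinase of muscle and fat that traps glucose as its phosphate, showed the largest change in TG and depended on 1 library in WT. Its level was 8.99, 6.603, 5.21, 7.003, 6.26 and 2.57 CPM in TG IRI kidneys, against 0.768, 0.139 and 0.561 CPM in TG NX kidneys. It was 8.26, 7.02, 7.40, 8.20, 7.15 and 11.9 CPM in WT IRI kidneys, against 39.0, 0.368 and 1.05 CPM in WT NX kidneys. All IRI libraries stood above all NX libraries except WT NX replicate 0, which exceeded every other library of the series. The log2 change was 3.59 ± 1.01 in TG (12-fold, adjusted p = 0.011 by edgeR). In WT it was -0.72 ± 0.77 with all libraries (adjusted p = 0.52 by edgeR) and 3.56 ± 0.55 without WT NX replicate 0 (adjusted p = 0.00012 by edgeR), so the direction turned with that library. The TG call was lost without TG NX replicate 1, at 3.18 ± 1.16 (adjusted p = 0.058 by edgeR).

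Ldha, whose enzyme turns pyruvate into lactate, did not rise in either genotype. It had 796, 745, 825, 735, 816 and 768 CPM in TG IRI kidneys, against 709, 779.6 and 750.0 CPM in TG NX kidneys, and the groups overlapped (log2 change 0.06 ± 0.07, adjusted p = 0.56 by edgeR). It fell in WT, with 735, 784, 721, 705, 771 and 726 CPM in WT IRI kidneys, against 895, 936 and 846 CPM in WT NX kidneys. All WT IRI libraries lay under all WT NX libraries, and the log2 change was -0.27 ± 0.06 (1.21-fold lower, adjusted p = 0.003 by edgeR).

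Pdk1, the kinase that shuts pyruvate dehydrogenase, was called in neither genotype. It had 22.98 to 34.3 CPM (median 31.4) in TG IRI kidneys, against 35.8, 35.3 and 41.3 CPM in TG NX kidneys, which all lay above the IRI libraries (log2 change -0.32 ± 0.15, adjusted p = 0.14 by edgeR). With upper-quartile scaling this TG change passed the threshold at -0.45 (adjusted p = 0.038 by edgeR), a scaling that itself moved the median of all genes in this comparison by -0.14. It had 27.9 to 50.9 CPM (median 35.3) in WT IRI kidneys, against 41.9, 33.7 and 39.6 CPM in WT NX kidneys, and these groups overlapped.

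Bnip3, a mitochondrial protein that marks mitochondria for removal, had 46.1 to 54.9 CPM (median 50.7) in TG IRI kidneys, against 52.7, 53.8 and 50.8 CPM in TG NX kidneys, and was not called there (log2 change -0.05 ± 0.10, adjusted p = 0.73 by edgeR). It fell in WT, with 39.9 to 52.2 CPM (median 47.7) in WT IRI kidneys, against 63.0, 51.3 and 62.6 CPM in WT NX kidneys (log2 change -0.33 ± 0.09, adjusted p = 0.011 by edgeR). The WT groups overlapped at 1 NX library. The WT call was lost without WT NX replicate 0 (-0.27, adjusted p = 0.071 by edgeR) or without WT NX replicate 2 (-0.27, adjusted p = 0.077 by edgeR).

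Egln3, an oxygen sensor that HIF itself raises, was called in neither genotype. It had 13.1 to 18.8 CPM (median 13.9) in TG IRI kidneys, against 10.3, 14.9 and 16.4 CPM in TG NX kidneys (log2 change 0.10 ± 0.18, adjusted p = 0.72 by edgeR). It had 8.14 to 16.6 CPM (median 12.9) in WT IRI kidneys, against 15.01, 13.8 and 13.3 CPM in WT NX kidneys (log2 change -0.12 ± 0.18, adjusted p = 0.65 by edgeR). Both pairs of groups overlapped.

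Ankrd37, a small ankyrin-repeat protein and known HIF target, rested on few reads, with 16 to 104 counts per NX or IRI library. It had 0.543, 1.04, 0.880, 0.553, 0.877 and 1.35 CPM in TG IRI kidneys, against 0.610, 0.486 and 0.604 CPM in TG NX kidneys, and was not called (log2 change 0.61 ± 0.32, adjusted p = 0.16 by edgeR). It rose in WT, with 1.41, 1.24, 1.05, 0.790, 0.909 and 0.937 CPM in WT IRI kidneys, against 0.414, 0.486 and 0.281 CPM in WT NX kidneys (log2 change 1.42 ± 0.34, adjusted p = 0.0033 by edgeR). The WT groups did not overlap, and the TG groups did.

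**Figure D1:**
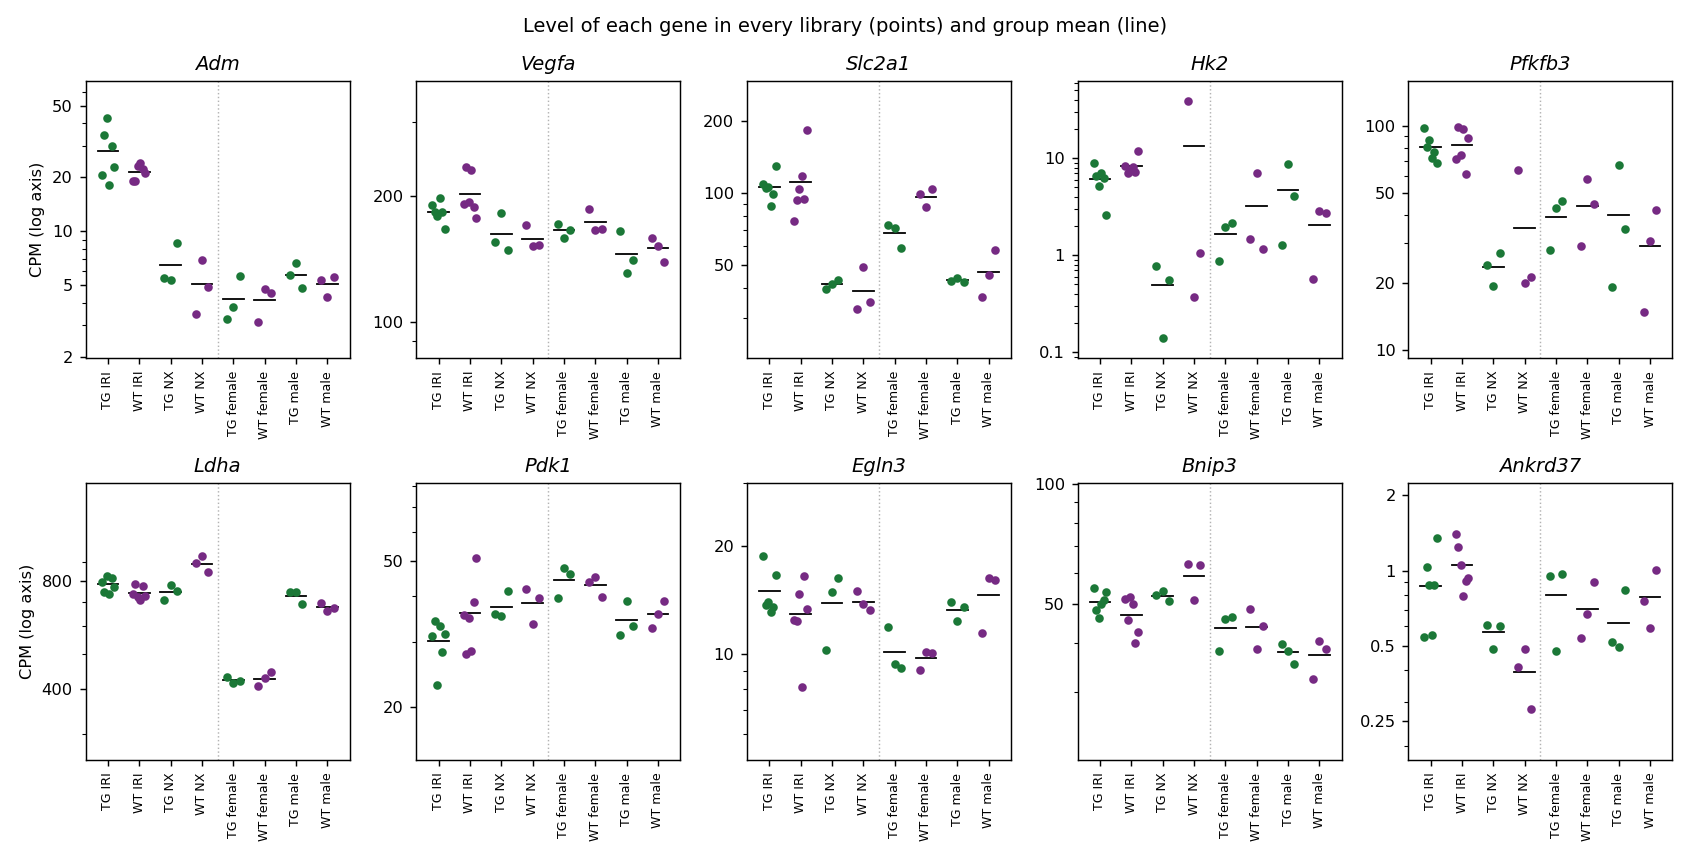
CPM of each of the 10 genes (log axis) in every library by group; points are libraries, lines group means, green TG and purple WT, and the dotted line parts the NX and IRI libraries from the no-surgery libraries, which come from another count table. Adm, Slc2a1 and Pfkfb3 stand high in both IRI groups, Ldha stands low in females, and Hk2 reaches 39.0 CPM in 1 WT NX library.

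**Figure D2:**
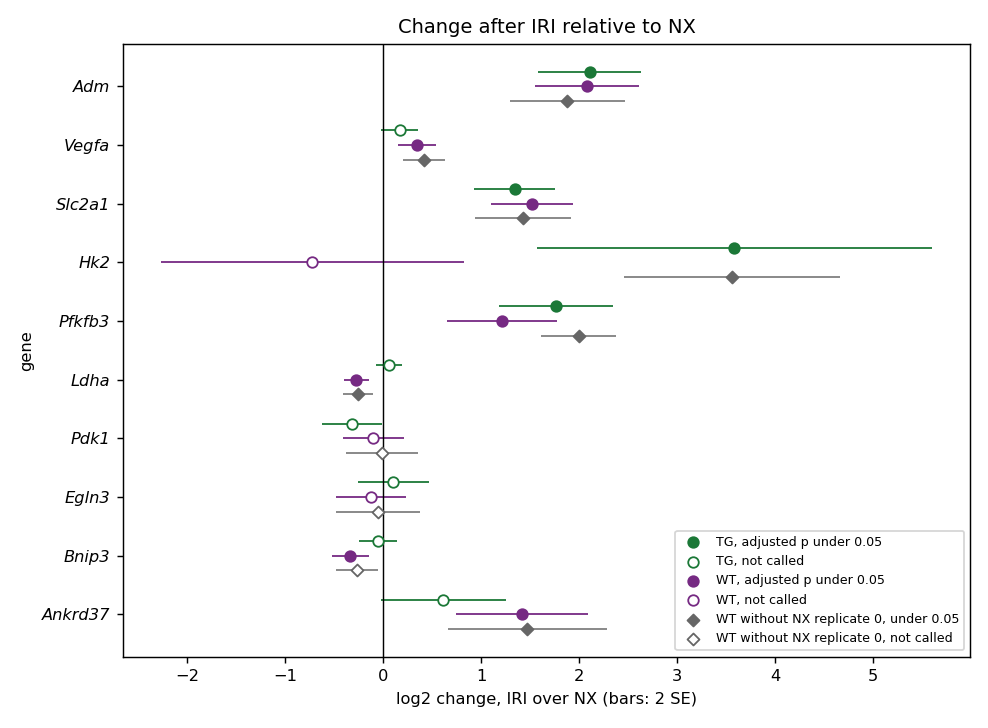
Log2 change of each gene, IRI over NX, with bars of 2 SE, in TG (green), in WT (purple) and in WT without NX replicate 0 (grey); filled points have an adjusted p under 0.05. Hk2 in WT lies at -0.72 with all libraries and at 3.56 without that replicate, and Adm lies near 2.1 in each fit with all libraries.

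Some cell-type marker sums also stood higher after IRI, in part with overlap. The leukocyte sums overlapped between IRI and NX in TG, and the red cell sums in WT. Sums for proximal tubule, distal tubule and collecting duct, podocyte, endothelium, and pericyte and fibroblast overlapped between IRI and NX in both genotypes. The leukocyte markers summed to 30.1 to 81.1 CPM in TG IRI kidneys, against 17.6 to 35.3 CPM in TG NX kidneys, and to 41.4 to 148 CPM in WT IRI kidneys, against 13.6 to 28.7 CPM in WT NX kidneys. The red cell markers summed to 31.2 to 161 CPM in TG IRI kidneys, against 3.92 to 20.3 CPM in TG NX kidneys, and to 119.5 to 1423 CPM in WT IRI kidneys, against 39.0 to 130.04 CPM in WT NX kidneys. All 6 leukocyte and all 5 red cell markers had counts in each of the WT IRI libraries. Loop of Henle markers summed to 2904 to 4824 CPM in TG IRI kidneys, against 2742 to 4334 CPM in TG NX kidneys, and to 3739 to 6536 CPM in WT IRI kidneys, against 2382 to 3177 CPM in WT NX kidneys, where the groups did not overlap. The adipocyte sum had a median of 54.6 CPM in TG IRI kidneys and 30.8 CPM in TG NX kidneys. Fabp4 made up most of that sum in each of these libraries. The part of these markers in the changes of the 10 genes was not tested.

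Whether the response to injury differed between genotypes was asked by the interaction, the TG change minus the WT change. None of the 10 genes was called, where 0.0% of the 19264 genes were called by edgeR. At an unadjusted p under 0.05 there were 2 of the 10, where 9.59% of all genes were, and DESeq2 called 0 of the 10. Those 2 were Ldha, at 0.33 ± 0.09 (adjusted p = 0.38 by edgeR), and Hk2, at 4.31 ± 1.23 (adjusted p = 0.38 by edgeR). Without WT NX replicate 0 the Hk2 interaction was 0.03 ± 0.60, so its size rested on that library. For Adm the interaction was 0.03 ± 0.34 and for Slc2a1 it was -0.18 ± 0.28, ranges of 2 SE that reach from -0.66 to 0.71 and from -0.73 to 0.38.

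TG and WT kidneys were then compared directly within each condition. After IRI 0 of the 10 genes were called, where 0.0701% of the 17111 genes tested were called by edgeR. WT IRI replicate 1, which held EGFP, counts as WT here by its label. With each single library left out, that one included, 0 of the 10 were still called. Adm alone had an unadjusted p under 0.05, as 14.1% of all genes did, at 0.38 ± 0.17 (adjusted p = 0.35 by edgeR), and DESeq2 called 0 of the 10. Adm averaged 28.2 ± 9.50 CPM in TG IRI kidneys and 21.5 ± 2.04 CPM in WT IRI kidneys (SD, n = 6 each), and the groups overlapped, with TG libraries both below and above the WT range. Hk2 averaged 6.11 ± 2.13 CPM in TG IRI kidneys and 8.32 ± 1.83 CPM in WT IRI kidneys (log2 difference -0.46 ± 0.23, adjusted p = 0.39 by edgeR). Over the 10 genes the differences ran from -0.46 to 0.38.

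After NX 0 of the 10 genes were called, where 0.0117% of 17100 genes were called by edgeR, 2 had an unadjusted p under 0.05, where 6.77% of all genes did, and DESeq2 called 0. Those 2 were Ldha, which averaged 746 ± 35.5 CPM in TG NX kidneys and 892 ± 45.4 CPM in WT NX kidneys (SD, n = 3 each; -0.26 ± 0.09, adjusted p = 0.73 by edgeR), and Hk2, at -4.75 ± 1.54 (adjusted p = 0.73 by edgeR). Without the filter on low counts Hk2 was called (-4.75, adjusted p = 0.0024 by edgeR), and without WT NX replicate 0 its difference was -0.51 ± 0.73.

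Without surgery the genotypes were compared within each sex. In males 0 of the 10 genes were called, where 0.00523% of 19126 genes were called by edgeR, 0 had an unadjusted p under 0.05, where 5.22% of all genes did, and DESeq2 called 0. In females 0 of the 10 were called by edgeR, where 0.0418% of genes were called, and 1 had an unadjusted p under 0.05, where 9.09% of all genes did. That gene was Slc2a1, with 73.4, 71.3 and 58.9 CPM in TG females, against 99.3, 87.2 and 104 CPM in WT females. The groups did not overlap, and the difference was -0.51 ± 0.13 (adjusted p = 0.22 by edgeR). It was called by DESeq2 (adjusted p = 0.026) and by edgeR without the filter on low counts (adjusted p = 0.024), so this call depends on the tool and the filter.

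Sex was compared without surgery, females against males. In TG mice 2 of the 10 genes were higher in females and 1 lower, where 9.87% of 19126 genes were higher and 11.3% lower. In WT mice 1 was higher and 2 lower, where 10.1% of genes were higher and 11.3% lower. The median log2 difference was 0.10 over the 10 genes and 0.02 over all genes in TG, and 0.24 over the 10 genes and 0.03 over all genes in WT. Slc2a1 was higher and Ldha lower in females of both genotypes.

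Ldha had 433, 414 and 419.6 CPM in TG females, against 746, 745 and 691 CPM in TG males. It had 406, 428 and 446 CPM in WT females, against 695, 659 and 671 CPM in WT males. No female library came near a male one, and the log2 difference was -0.76 ± 0.06 in TG (adjusted p = 4.3e-06 by edgeR) and -0.64 ± 0.06 in WT (adjusted p = 1.4e-05 by edgeR).

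Slc2a1 had the TG and WT female values given above, against 42.9, 44.2 and 42.7 CPM in TG males and 36.7, 45.4 and 58.0 CPM in WT males. Females stood above males without overlap in each genotype. The log2 difference was 0.68 ± 0.13 in TG (1.598-fold, adjusted p = 0.0031 by edgeR) and 1.07 ± 0.13 in WT (2.10-fold, adjusted p = 0.00011 by edgeR). The sex difference of Slc2a1 in TG minus that in WT was -0.40 ± 0.19 (adjusted p = 0.59 by edgeR).

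Markers of 3 kidney segments were higher in females of both genotypes without overlap, beside these differences of Ldha and Slc2a1. Distal tubule and collecting duct markers summed to 2085 to 2355 CPM in TG females and 1446 to 1582 CPM in TG males, and to 2339 to 2651 CPM in WT females and 1178 to 1315 CPM in WT males. Podocyte markers summed to 358 to 379 CPM in TG females and 249 to 279.6 CPM in TG males, and to 355 to 370.4 CPM in WT females and 257 to 287 CPM in WT males. The third, loop of Henle markers, reached 5006 CPM or more in every female library and 4763 CPM or less in every male library. Proximal tubule markers were lower in TG females without overlap, at 8721 to 9160 CPM, against 9406 to 10359 CPM in TG males. In WT they overlapped, at 8021 to 8776 CPM in females and 7676 to 10677 CPM in males. The part of these markers in the sex differences was not tested.

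Egln3 was lower in WT females, with 9.08, 10.2 and 10.1 CPM, against 11.4, 16.3 and 16.1 CPM in WT males (log2 difference -0.56 ± 0.14, adjusted p = 0.015 by edgeR). The call was lost without WT female replicate 0 (adjusted p = 0.059 by edgeR), WT male replicate 1 (adjusted p = 0.061 by edgeR) or WT male replicate 2 (adjusted p = 0.054 by edgeR). In TG it had 11.9, 9.40 and 9.18 CPM in females, against 13.98, 12.4 and 13.5 CPM in males (-0.36 ± 0.14, adjusted p = 0.093 by edgeR), with no overlap. It was called in TG without WT male replicate 0 (adjusted p = 0.047 by edgeR).

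Pdk1 was higher in TG females, with 39.5, 47.7 and 46.1 CPM, against 31.4, 38.9 and 33.3 CPM in TG males (log2 difference 0.39 ± 0.10, adjusted p = 0.012 by edgeR). That call was lost without TG male replicate 0 (adjusted p = 0.055 by edgeR), TG female replicate 1 (adjusted p = 0.061 by edgeR) or TG female replicate 2 (adjusted p = 0.053 by edgeR). In WT it had 43.8, 45.1 and 39.8 CPM in females, against 32.8, 35.9 and 38.8 CPM in males (0.28 ± 0.10, adjusted p = 0.058 by edgeR), with no overlap.

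Same-numbered WT females and males deviated together (lowest r 0.105 over genes), and with the replicate number as a block 4 of the 10 genes were higher in WT females in place of 1. The added calls were Vegfa (0.23, adjusted p = 0.030 by edgeR), Pdk1 (0.28, adjusted p = 0.026 by edgeR) and Pfkfb3 (0.65, adjusted p = 0.049 by edgeR). The labels do not name these libraries as pairs, and the lowest r lay just above the cut of 0.1 used for pairing. Pfkfb3 also moved with fat genes among the no-surgery libraries, as given below, and the part of fat in its call was not tested. Vegfa averaged 173 ± 11.6 CPM in WT females and 150.0 ± 10.3 CPM in WT males (SD, n = 3 each). Bnip3, Adm, Ankrd37 and Hk2 were called in neither genotype. The interaction of sex with genotype was called for 0 of the 10 genes, where 0.00523% of 19126 genes were called by edgeR. Of the 10, 0 had an unadjusted p under 0.05 there, where 8.58% of all genes did, and DESeq2 called 0.

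**Figure D3:**
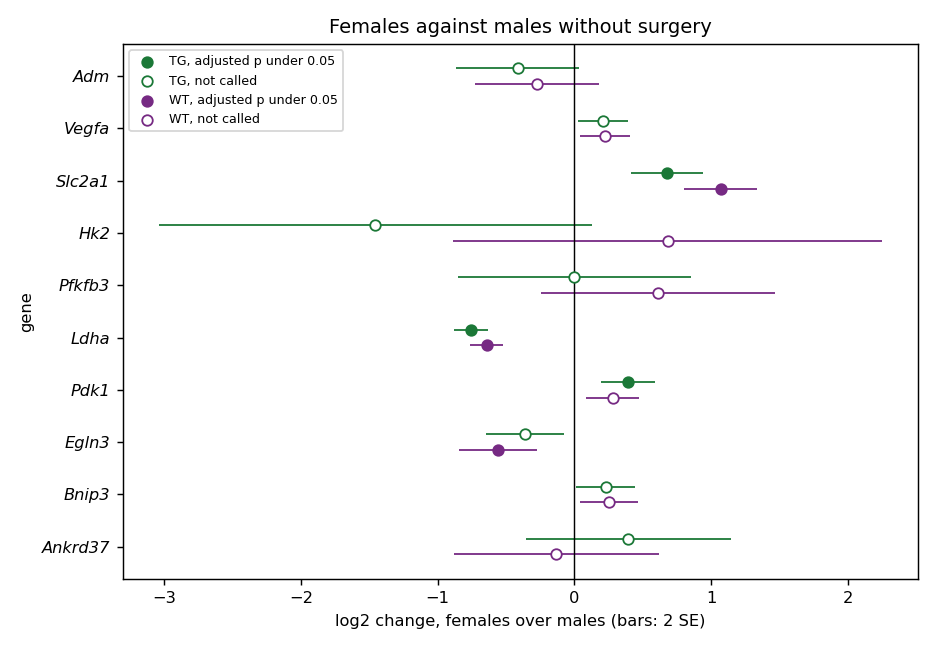
Log2 difference of each gene, females over males without surgery, with bars of 2 SE, in TG (green) and WT (purple); filled points have an adjusted p under 0.05. Ldha lies at -0.76 in TG and -0.64 in WT, and Slc2a1 at 0.68 in TG and 1.07 in WT.

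Hk2 and Pfkfb3 moved with fat genes among the libraries without injury. In the 12 no-surgery libraries the summed level of the 5 adipocyte markers ran from 40.3 to 334 CPM, and Adipoq, which only fat cells make in quantity, from 0.574 to 22.7 CPM. Hk2 had 0.867, 1.98 and 2.14 CPM in TG females and 1.47, 7.08 and 1.17 CPM in WT females. It had 1.27, 8.71 and 4.04 CPM in TG males and 0.574, 2.87 and 2.72 CPM in WT males. In each of the 6 groups without IRI, the library with the most Hk2 was also the library with the most Adipoq.

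This relation was computed after the values were seen, for all 10 genes against the adipocyte sum, on the log2 scale after subtracting each group's mean over the 12 no-surgery libraries. For Hk2 Pearson's r was 0.96 (exact permutation within groups, p = 0.00077, the smallest it can give, adjusted over the 10 genes p = 0.0077) and Spearman's rho 0.99 (exact permutation p = 0.00077, adjusted p = 0.0077). Without the 2 libraries farthest from the median of the sum r was 0.93. For Pfkfb3 r was 0.84 (exact permutation p = 0.0085, adjusted p = 0.042), rho 0.89 (exact permutation p = 0.0069, adjusted p = 0.035) and r without those 2 libraries 0.81. For Pdk1 r was 0.76 (exact permutation p = 0.013, adjusted p = 0.044), rho 0.73 (exact permutation p = 0.017, adjusted p = 0.057) and r without those 2 libraries 0.70. The other 7 genes had adjusted p of 0.15 or more for r.

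The adipocyte sum was itself higher after IRI than in most NX libraries. It was 41.2 to 109 CPM in TG IRI kidneys, against 16.1 to 45.1 CPM in TG NX kidneys, and 48.3 to 89.8 CPM in WT IRI kidneys, against 759.5, 16.8 and 19.7 CPM in WT NX kidneys. Fabp4 made up most of the sum in every NX and IRI library. It had 40.9 to 84.4 CPM in TG IRI kidneys, against 15.9 to 38.8 CPM in TG NX kidneys. In WT it had 47.7 to 80.7 CPM in IRI kidneys, against 522, 16.5 and 19.7 CPM in NX kidneys. Adipoq had 0 to 2.41 CPM in TG IRI kidneys, against 0 to 0.881 CPM in TG NX kidneys, and 0 to 1.37 CPM in WT IRI kidneys. Adipoq had 0 counts in 3 of 6 TG IRI libraries, in which Hk2 had 2.57 to 6.26 CPM, and in 2 of 3 TG NX libraries, in which Hk2 had 0.139 and 0.561 CPM. Adipoq had 0 counts in 3 of 6 WT IRI libraries, in which Hk2 had 7.15 to 11.9 CPM, and in 2 of 3 WT NX libraries, in which Hk2 had 0.368 and 1.05 CPM. In these libraries without an Adipoq count the adipocyte sum was 46.3, 41.2 and 58.7 CPM in TG IRI kidneys, against 16.1 and 30.8 CPM in TG NX kidneys, and 48.3, 64.4 and 65.2 CPM in WT IRI kidneys, against 16.8 and 19.7 CPM in WT NX kidneys. Fabp4 held nearly all of these sums, while Plin1 had 0.0575 CPM or less and Cfd 0.222 CPM or less. Both Hk2 and the sum, which was nearly all Fabp4, were thus higher in these IRI libraries. The part of fat in the Hk2 change was not tested. In WT NX replicate 0 Adipoq had 38.3 CPM and Ucp1, the uncoupling protein of brown fat, 699 CPM. Ucp1 was named after its values were seen.

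**Figure D4:**
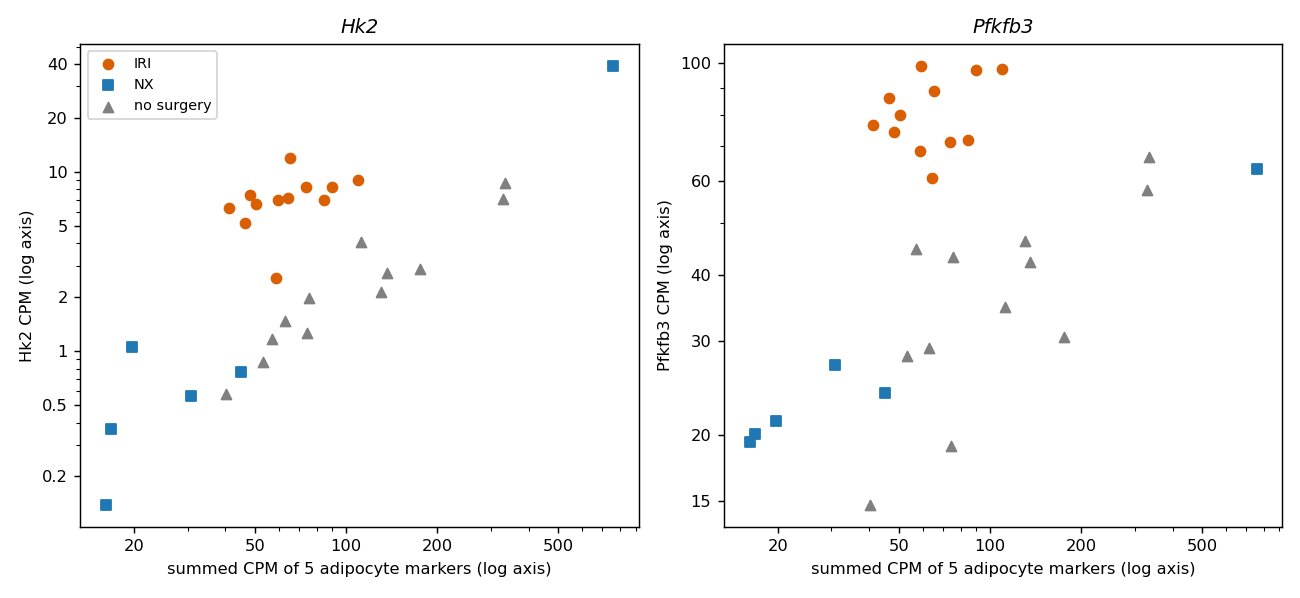
Hk2 (left) and Pfkfb3 (right) CPM against the summed CPM of 5 adipocyte markers, all axes log, with 1 point per library; circles are IRI, squares NX and triangles no-surgery libraries. Without IRI the points climb together, up to the WT NX library at 759.5 CPM of fat markers and 39.0 CPM of Hk2. The IRI libraries hold 2.57 to 11.9 CPM of Hk2 at marker sums of 41.2 to 109 CPM, and Fabp4 makes up most of these sums.

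Among the 12 IRI libraries the genes did not share 1 order. WT IRI replicate 5 was highest for Slc2a1, Pdk1 and Hk2, while TG IRI replicate 0 was highest for Bnip3 and Egln3, TG IRI replicate 2 for Adm and Ldha, WT IRI replicate 1 for Vegfa and Pfkfb3, and WT IRI replicate 0 for Ankrd37. The mean rank of a library over the 10 genes ran from 4.80 to 8.40, where 1 is the highest. Of the 45 pairs of genes, compared on log2 CPM after subtracting the genotype mean, none had an adjusted p under 0.05 by permutation within genotype, and the smallest was 0.83. The pair with the smallest p was Ankrd37 and Hk2 (Pearson's r -0.69, permutation p = 0.027, Spearman's rho -0.51, permutation p = 0.10), and without the 2 libraries farthest from the median of Ankrd37 r was -0.28. Pearson's r over the 45 pairs ran from -0.69 to 0.56 with a median of -0.08. The tightest gene was Ldha, with a coefficient of variation of 4.75% in TG IRI kidneys and 4.12% in WT IRI kidneys, against 33.7% for Adm and 34.9% for Hk2 in TG IRI kidneys.

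Per kilobase of exon the 10 genes spanned a wide range of levels. Ldha was highest in all 8 groups, with group means of 128 to 269.6 CPM per kb. Vegfa followed at 34.04 to 47.3 CPM per kb, and Ankrd37 was near the bottom at 0.256 to 0.686 CPM per kb. Hk2 had 1.02 CPM per kb in TG IRI kidneys, 1.39 in WT IRI kidneys, 0.0820 in TG NX kidneys and 2.26 in WT NX kidneys. In CPM, Adm averaged 4.15 ± 0.877 to 5.72 ± 0.933 over the 4 no-surgery groups (SD, n = 3 each), near its NX means of 6.49 ± 1.86 in TG and 5.07 ± 1.74 in WT. Slc2a1 averaged 67.9 ± 7.86 CPM in TG females and 96.8 ± 8.63 CPM in WT females. Set against the males, these lay between the NX and IRI means with factors over all libraries, but with TMM factors within each table WT females, at 111 CPM, stood above the IRI means of 97.5 CPM in TG and 103 CPM in WT, so that order depends on the scaling. No test was made between no-surgery and operated kidneys, because surgery and count table cannot be told apart.

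Other genes of the pathway moved in both directions. Of 90 further genes in 6 lists 88 were tested, and in IRI against NX 23 rose and 19 fell in TG, with a median log2 change of -0.01, while 24 rose and 23 fell in WT, with a median of -0.04. Over all genes tested 16.4% rose and 13% fell in TG, and 16.8% rose and 14.1% fell in WT, shares against which the counts of each list below are to be read. Epo, the kidney hormone of red cell production, was among those too low to test.

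Among the HIF subunits and oxygen sensors 4 of 11 rose and 0 fell in TG, while 3 rose and 5 fell in WT. Hif1a, the alpha subunit that hypoxia stabilises, averaged 162 ± 11.4 CPM in TG IRI kidneys and 96.7 ± 2.31 CPM in TG NX kidneys (0.74 ± 0.08, adjusted p = 5.8e-07 by edgeR), and 152 ± 9.76 CPM in WT IRI kidneys and 89.0 ± 3.42 CPM in WT NX kidneys (0.77 ± 0.08). Cited2, which competes with HIF for its coactivator, rose by 0.81 ± 0.11 in TG and 1.38 ± 0.11 in WT, and Siah2, a ubiquitin ligase for prolyl hydroxylases, rose by 1.06 ± 0.13 in TG and 1.20 ± 0.13 in WT.

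Among other HIF-responsive genes 10 of 23 rose and 3 fell in TG, while 10 rose and 4 fell in WT. Edn1, the vessel-constricting endothelin, rose by 1.94 ± 0.27 in TG and 2.68 ± 0.28 in WT. Ak4, a mitochondrial adenylate kinase, changed the other way, with 441 ± 65.1 CPM in TG IRI kidneys and 946 ± 132 CPM in TG NX kidneys (-1.11 ± 0.14), and -1.25 ± 0.14 in WT.

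Among the glycolytic enzymes 2 of 20 rose and 4 fell in TG, while 5 rose and 3 fell in WT, and the median log2 change was -0.02 in TG and -0.06 in WT. Pfkp, the platelet form of phosphofructokinase, rose by 0.75 ± 0.18 in TG and 1.15 ± 0.19 in WT, and Eno2, the neuronal enolase, by 1.70 ± 0.36 in TG and 2.21 ± 0.37 in WT. Hk3, a hexokinase of leukocytes, rose in WT to 1.25 ± 0.791 CPM in IRI kidneys, against 0.179 ± 0.116 CPM in NX kidneys (2.78 ± 0.64), beside the leukocyte sums given above. That NX mean lay below the one of Ankrd37 in WT, 0.394 CPM, so the Hk3 change too rested on few reads. Hk3 was not called in TG (0.49 ± 0.55), and the TG change minus the WT change, -2.29 ± 0.80, was not called either (adjusted p = 0.41 by edgeR). Pgam1, a mutase of lower glycolysis, fell in both genotypes, with a log2 change of -0.24 ± 0.07 in each.

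The next list held kinases and phosphatases that set phosphofructokinase and pyruvate dehydrogenase, together with subunits of pyruvate dehydrogenase itself. Of its 12 genes 3 rose and 4 fell in TG, while 3 rose and 5 fell in WT. Pdk4, a sister kinase of Pdk1 known to rise in fasting, had 376 ± 101 CPM in TG IRI kidneys and 18.8 ± 2.10 CPM in TG NX kidneys (4.32 ± 0.48, adjusted p = 1.4e-06 by edgeR), and 321 ± 86.6 CPM in WT IRI kidneys and 55.0 ± 51.3 CPM in WT NX kidneys (2.53 ± 0.43). The WT NX libraries ran from 18.99 to 114 CPM, under the lowest WT IRI library at 192 CPM. The phosphatases that reverse these kinases parted: Pdp1 rose by 1.53 ± 0.24 in TG and 1.64 ± 0.24 in WT, while Pdp2 had a log2 change of -1.81 ± 0.13 in TG and -1.66 ± 0.13 in WT.

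Among the glucose and lactate transporters 3 of 11 rose and 4 fell in TG, while 3 rose and 5 fell in WT. Slc16a1, the lactate carrier MCT1, had 119.9 ± 24.6 CPM in TG IRI kidneys and 34.4 ± 8.06 CPM in TG NX kidneys (1.79 ± 0.20), and rose by 1.57 ± 0.20 in WT. Slc16a3, the lactate exporter MCT4, rose by 1.80 ± 0.47 in TG and 2.35 ± 0.48 in WT. Slc2a2, the basolateral glucose carrier GLUT2 of the proximal tubule, was lower by -0.45 ± 0.08 in TG and -0.78 ± 0.08 in WT on the log2 scale, and Slc2a5, the fructose carrier, had a log2 change of -0.54 ± 0.18 in TG and -1.07 ± 0.18 in WT.

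Among the ligands and receptors of VEGF and adrenomedullin 3 of 13 rose and 4 fell in TG, while 2 rose and 1 fell in WT. Pgf, a VEGF relative, averaged 1.24 ± 0.453 CPM in TG IRI kidneys and 0.158 ± 0.108 CPM in TG NX kidneys (2.91 ± 0.73), and changed by 1.98 ± 0.68 in WT. The NX means of Pgf lay below those of Ankrd37 in both genotypes, so these changes too rested on few reads. Ramp3, which turns the calcitonin-like receptor into an adrenomedullin receptor, rose by 0.67 ± 0.15 in TG and was not called in WT (0.24 ± 0.15), and the difference between these changes, 0.42 ± 0.21, was not called (adjusted p = 0.54 by edgeR). Nrp2, a VEGF co-receptor, rose by 0.71 ± 0.19 in TG and 0.66 ± 0.19 in WT, and Nrp1, the other VEGF co-receptor, had a log2 change of -0.53 ± 0.16 in TG and -0.52 ± 0.16 in WT.

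**Figure D5:**
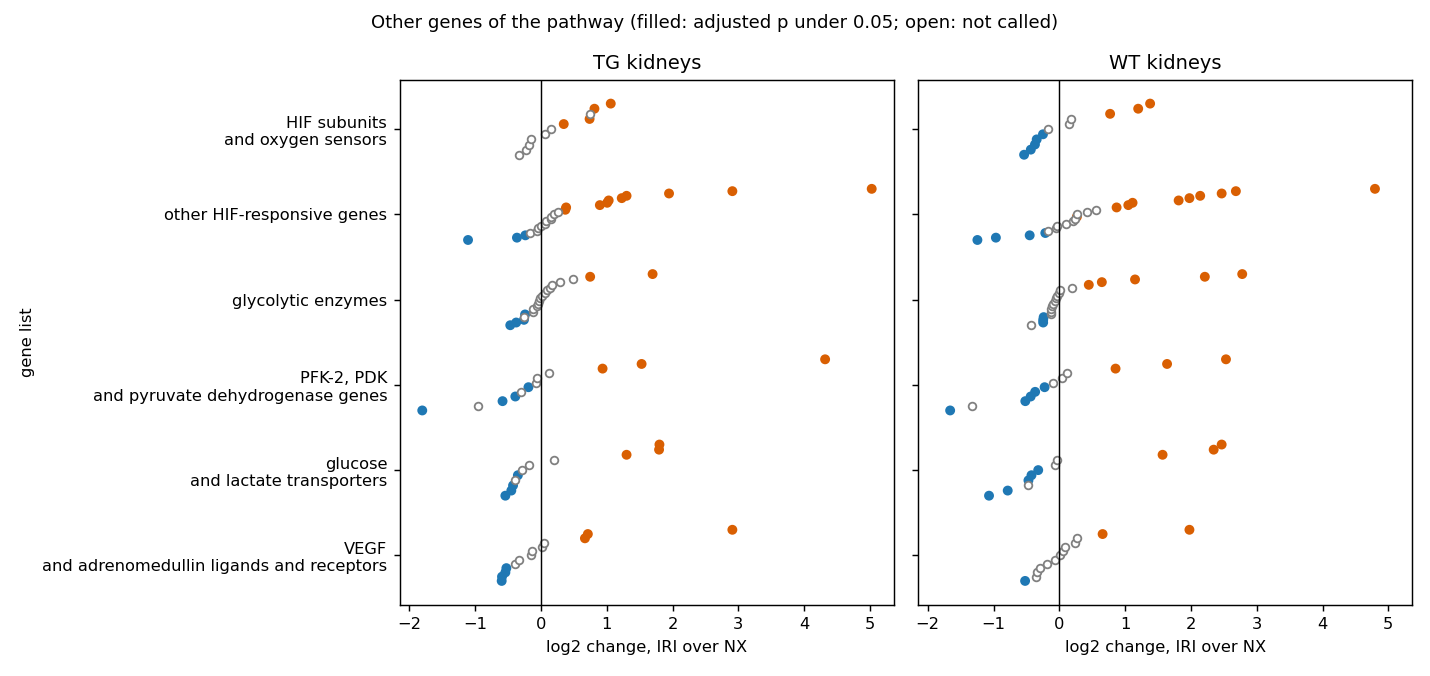
Log2 change, IRI over NX, of the tested genes of the 6 further lists in TG (left) and WT (right), with 1 point per gene; filled points have an adjusted p under 0.05, orange higher and blue lower. Calls lie on both sides of 0 in every list except the HIF subunits in TG, where 4 rose and 0 fell.

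Between the sexes, 6 of 20 glycolytic enzymes in TG were higher in females and 1 lower, with a median log2 difference of 0.20, and in WT 10 of 20 were higher and 1 lower, with a median of 0.32. Over all genes 9.87% were higher and 11.3% lower in TG, and 10.1% were higher and 11.3% lower in WT. Hk1, the ubiquitous hexokinase, had 213 ± 6.30 CPM in TG females and 135 ± 6.71 CPM in TG males (0.68 ± 0.11, adjusted p = 0.00075 by edgeR), and Pkm, pyruvate kinase, had 381 ± 20.5 CPM in WT females and 233 ± 34.1 CPM in WT males (0.73 ± 0.11). Pgam2, the muscle mutase, was higher by 0.34 ± 0.08 in TG females and 0.80 ± 0.08 in WT females. Tpi1 was lower in females of both genotypes, at -0.43 ± 0.07 in TG and -0.26 ± 0.07 in WT. Loop of Henle markers summed to 5019 to 5449 CPM in TG females and 3081 to 3362 CPM in TG males, and to 5006 to 5852 CPM in WT females and 3029 to 4763 CPM in WT males. Distal tubule and collecting duct markers and podocyte markers were also higher in females without overlap, as given above. Proximal tubule markers were lower in TG females, and the part of all these markers was not tested.

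In the remaining lists Slc16a1 was lower in females, with 14.7 ± 2.38 CPM in TG females and 58.5 ± 17.8 CPM in TG males (-1.96 ± 0.22, adjusted p = 6.7e-05 by edgeR) and -1.24 ± 0.22 in WT. Slc2a2 was lower in females (-0.38 ± 0.09 in TG and -0.75 ± 0.09 in WT), while Slc2a4, the insulin-responsive carrier GLUT4, was higher (0.41 ± 0.09 in TG and 0.70 ± 0.09 in WT). Slc2a5 was higher in TG females (0.78 ± 0.12) and not called in WT (0.34 ± 0.12), with a difference between genotypes of 0.44 ± 0.16 that was not called (adjusted p = 0.48 by edgeR). Pdk3 was lower in females of both genotypes (-0.66 ± 0.10 in TG and -0.69 ± 0.10 in WT). So were Pdha1, a subunit of pyruvate dehydrogenase (-0.29 ± 0.06 in TG and -0.26 ± 0.06 in WT), and Arnt2, a HIF partner (-0.53 ± 0.08 in TG and -0.54 ± 0.08 in WT). Siah2 was lower in WT females (-0.28 ± 0.09) and not called in TG (-0.15 ± 0.09), with an uncalled difference between genotypes of 0.13 ± 0.12 (adjusted p = 0.78 by edgeR). Stc2, a secreted glycoprotein, was higher in females (1.02 ± 0.17 in TG and 1.07 ± 0.17 in WT), and Bhlhe40, a transcriptional repressor, was higher too (1.24 ± 0.26 in TG and 1.02 ± 0.26 in WT). Car9, a carbonic anhydrase, was lower (-1.01 ± 0.23 in TG and -1.26 ± 0.24 in WT). Vegfb was higher in females (0.31 ± 0.10 in TG and 0.41 ± 0.10 in WT), and Vegfd was higher in WT females (1.12 ± 0.29) and not called in TG (0.71 ± 0.28), with an uncalled difference between genotypes of -0.41 ± 0.40 (adjusted p = 0.79 by edgeR).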

How the data were processed

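Per the labels' protocols, poly-A RNA of whole kidney went into paired-end libraries. The authors used fastp 0.23.2, STAR 2.7.0 and featureCounts 2.0.3 with genome build GRCm39, per the submitters' processing notes. What the authors deposited is 2 tables of raw counts by gene, for 18 NX and IRI libraries and for 12 no-surgery libraries, with Ensembl release 112 and an EGFP entry per the file headers. A single count column in each table, shifted in the header by a broken comment line, is recorded as other although the deposited values are counts. How strands and read pairs were counted is not given in the sources used here. Between 37.3 and 41.9% of counts of 10 or more were odd, so halved counts were tried. Symbols came from GENCODE M21 by identifier (51880 of 57133 matched), and promoter windows from RefSeq on GRCm38.p6, another build than that of the counts.

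The main test was the quasi-likelihood test of edgeR 4.0.16 (R 4.3.3, two-sided) on TMM factors after filterByExpr, with Benjamini-Hochberg adjusted p under 0.05 over all genes. IRI against NX and its interaction with genotype were fitted on all 18 libraries, TG against WT on the 12 IRI or 6 NX libraries, and the no-surgery comparisons on all 12. The interaction and the genotype comparisons share libraries with the others. CPM use TMM factors over all 30 libraries. The test was checked on simulated counts. Of 435 pairs of libraries none agreed within sampling noise, with chi-square values of 16.9 or more per gene.

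Same-numbered libraries were taken as paired where every pair's deviations from the group means correlated above 0.1. This held for females against males in WT (lowest r 0.105) and for TG against WT in no-surgery males (lowest r 0.100), and in no other comparison. Females against males in TG (lowest r 0.091) and IRI against NX in WT (lowest r 0.090) just missed this cut. The main test did not use the pairing.

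Members and lists were chosen with earlier results of these data known. Named are all 10 genes, EGFP and Gsta2 and, from each further list and genotype, the 3 genes of smallest p among those called after IRI and the 2 of smallest p among those called between the sexes. Some genes that this rule names are not reported here. Replicate numbers are those of the labels, and the library whose label has no number is called replicate 0. Alternatives were RLE and upper-quartile scaling, dropping the filter on low counts, DESeq2 1.42.0, halved counts, fits with the replicate number as a block or on fewer or more groups, TMM within each table, and each library left out. Leaving out 2 pairs of libraries was chosen after seeing the data.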

Additional observations from a re-analysis of the deposited data

Results flagged for a closer look

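Hk2 in the WT IRI libraries held 1 library far from the others. Replicate 5 had 11.9 CPM, while the other 5 lay between 7.02 and 8.26 CPM, and the gap to the nearest was 0.746 of the group's range. Of 20 gene and group combinations of 6 libraries, 1 was set apart in this way, and chance sets apart about 1 in 20. The same library had the highest Slc2a1 (184 CPM) and Pdk1 (50.9 CPM) of the IRI libraries, and the highest red cell marker sum (1423 CPM).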

How the results depend on the processing

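Of 2100 recomputed changes of the 10 genes, 2074 kept their side of the threshold, 11 lost a call and 13 gained one. The other 2 reversed, which means that they were called in the direction opposite to the main value. Uncalled changes near 0 could change sign and still count among the 2074. Ldha after IRI in TG, for example, ran from -0.08 to 0.09. Adm, Slc2a1 and Pfkfb3 were called higher after IRI in both genotypes under every alternative run. The reversed values were those of Hk2 after IRI in WT, at 3.56 without WT NX replicate 0 and 3.60 without that library and WT IRI replicate 1. Leaving out single libraries moved that change between -1.27 and 3.56. In TG, DESeq2 gave Hk2 a change of 3.63 and no adjusted p.

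Of the 10 genes, 2 were called lower after IRI in WT, with 1 to 2 when single libraries were left out and 1 without WT NX replicate 0 and WT IRI replicate 1 together, where Bnip3 was at -0.27 (adjusted p = 0.10 by edgeR). In TG 0 were called lower, against 1 with upper-quartile factors (Pdk1). Between TG and WT after NX 0 were called lower, against 1 without the count filter (Hk2). Between TG and WT females 0 were called lower, against 1 without the count filter and 1 with DESeq2 (Slc2a1 in both). In females against males in WT 1 was called higher, against 4 with the replicate block and 1 to 2 with single libraries left out, and 2 were called lower, against 1 to 2 with single libraries left out. In females against males in TG 2 were called higher, against 3 with the replicate block, where Vegfa was added at 0.21 (adjusted p = 0.040 by edgeR), and 1 to 2 with single libraries left out, while 1 was called lower, against 1 to 2. The block changed no other call of the 10 genes. Outside the pairs given as paired, same-numbered libraries did not pass the cut for pairing.

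Over all genes, TG against WT called 12 after IRI, against 363 with DESeq2, 43 without the count filter, 5 with the block and 0 to 109 with single libraries left out. After NX it called 2, against 45 with DESeq2 and 127 without the filter, in no-surgery males 1, against 14 with DESeq2 and 15 without the filter, and in no-surgery females 8, against 221 with DESeq2, 107 without the filter and 40 with the block. The interaction of injury and genotype called 0, against 41 with DESeq2, and that of sex and genotype 1, against 81 with DESeq2 and 37 without the filter. The cause of these differences was not tested. Of 380 group levels, 31 moved by more than the spread between libraries, all with TMM factors set within each table, so levels across the 2 tables depend on that choice. In IRI against NX, Hk2 had the widest errors, with SE of 1.01 in TG and 0.77 in WT, and Ankrd37 came next at 0.32 and 0.34. Ankrd37 had few counts, and so did Hk2 in the NX libraries other than WT NX replicate 0, which had 2356. In the no-surgery comparisons Pfkfb3 had wider errors than Ankrd37, with SE of 0.43 against 0.38 for TG against WT males.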
